A study of Chlorocebus aethiops with 36 samples.

Results

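Sterol regulatory element-binding proteins (SREBPs) are the transcription factors that set the rate of cholesterol and fatty acid synthesis in the liver, and the genes described here encode them and the proteins that hold, move and cut them. The set comprised 7 genes: SREBF1 and SREBF2, which encode the SREBPs, the escort protein gene SCAP, the retention protein genes INSIG1 and INSIG2, and the protease genes MBTPS1 and MBTPS2. All probe sets of a human expression array whose annotation named only 1 of these symbols were taken, which gave 15 of 54675 probe sets on the array. SREBF2, INSIG1 and MBTPS2 each had 3, SREBF1 and MBTPS1 each had 2, and SCAP and INSIG2 had 1. A further probe set that named MBTPS2 together with another gene was left out. Of the 15 probe sets, 13 passed the filter on low values, a mean of at least 4.46 on the log2 scale, which is the median of all probe sets, and were tested. The other 2, both of MBTPS2, had means of 4.35 and 3.28 and are given as values only.

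SREBPs are made as precursors in the membrane of the endoplasmic reticulum, where each binds SCAP. When sterols are plentiful, INSIG proteins bind SCAP and keep the complex in place. When sterols fall, SCAP carries the precursor to the Golgi, where the proteases encoded by MBTPS1 and MBTPS2 cut it in sequence and release the part that enters the nucleus. In the liver the SREBP-1c form of SREBF1 is induced by insulin and liver X receptors and drives fatty acid synthesis, and SREBP-2 drives cholesterol synthesis and uptake. INSIG1 is itself an SREBP target, so its RNA is part of a feedback loop. In primates an intron of SREBF2 holds the microRNA miR-33a and an intron of SREBF1 holds miR-33b, and both lower ABCA1, which exports cholesterol from cells.

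The samples were liver biopsies of 12 male African green monkeys (Chlorocebus aethiops), measured on HG-U133 Plus 2.0 arrays. The anti-miR-33 arm (6 animals) received an oligonucleotide against miR-33 and the control arm (6 animals) a control anti-miR, both at 5 mg/kg under the skin, 2 doses a week for 2 weeks and then 1 a week for 10 weeks. Baseline biopsies were taken at week -5, from untreated animals on chow. The second biopsy was at week 4, with chow still fed, and the third at week 12, when a diet rich in carbohydrate with moderate cholesterol had been fed for 8 weeks. The 36 arrays formed 6 groups of 6, with baseline arrays placed by the animal's later arm. Ages of the animals are not stated in the labels. All animals changed diet after week 4 and no group stayed on chow, so diet, time and length of treatment cannot be told apart in a change to week 12. One week 4 array, of control animal 1, carries the later diet in its label. The arrays' names form 1 run of numbers for baseline and week 12 and another for week 4. Whether these numbers mark batches of processing is not known here. If they do, batch and time cannot be told apart in the comparisons of week 4 with another time. The probes were designed on human transcripts, which limits comparing the level of 1 probe set with that of another. Such levels did enter the filter on low values and the choice of a gene's probe set by highest mean.

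The arrays had medians between 4.42 and 4.51 on the log2 scale, and no pair had more than 2.29% of its values identical. Hepatocyte markers were high on all arrays, with a mean over 12 genes between 12.1 and 12.7, and 1 of the 12 rose between baseline and week 12. At week 12 this mean was 12.64 ± 0.06 in anti-miR-33 animals and 12.50 ± 0.22 in controls (SD, n = 6 each). The lowest array was a week 12 control. All 12 markers were higher in the anti-miR-33 arm at week 12, with a median of 0.16 and none called, against 49.3% of all genes higher. The part of this in arm differences was not tested. Markers of other liver cells moved with time. Of all 13634 genes tested, 16.2% fell and 10.6% rose from baseline to week 12. Of 9 tested endothelial markers 6 fell in this interval and none rose, and the list averaged 6.42 ± 0.18 in baseline arrays (6.18 to 6.73), 6.02 ± 0.20 in week 4 arrays (5.79 to 6.49) and 5.94 ± 0.11 in week 12 arrays (5.79 to 6.18; SD, n = 12 each). In the same comparison 3 of 7 stellate cell markers, 2 of 8 macrophage markers and 2 of 4 blood markers fell, and 1 blood marker and 1 of 5 bile duct markers rose, while none of 8 lymphocyte markers and none of 2 fat and muscle markers passed. At week 4, 6 endothelial, 4 macrophage, 3 stellate cell and 2 lymphocyte markers were lower than at baseline, and 2 endothelial, 2 bile duct, 1 lymphocyte and 1 blood marker were higher, against 20.6% lower and 15% higher of all genes. From week 4 to week 12, 3 hepatocyte markers and 1 each of macrophages, lymphocytes and bile ducts rose, and 2 endothelial, 2 blood, 1 stellate cell and 1 fat and muscle marker fell, against 13.3% higher and 13.5% lower. RNA quality also moved with time. The 3′ control probe sets for GAPDH and ACTB exceeded their 5′ counterparts by 2.57 ± 0.43 log2 units in baseline arrays, by 1.94 ± 0.41 in week 4 arrays and by 1.83 ± 0.16 in week 12 arrays (SD, n = 12 each), and this difference is called the 3′ minus 5′ value. In tissue of mixed cells, fewer cells of a type and less RNA per cell cannot be told apart.

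The first question was whether the genes that host miR-33, and the genes that regulate their products, differed between the anti-miR-33 and the control arm. None of the 13 tested probe sets passed an adjusted p of 0.05 in limma, a linear model with a moderated variance and the animal as a random block, at baseline, at week 4 or at week 12. Among all 22391 probe sets tested, 0% were called in the baseline comparison, 0% in that of week 4 and 0.00447% in that of week 12. The difference between arms in the change over time was called for none of the 13 in each of the 3 intervals, against 0% of all probe sets in each interval. At an unadjusted p under 0.05, limma had 882, 1137 and 671 probe sets at the 3 times, and among the 13 it had 0, 1 and 0. The differences of the 13 had a median of 0.01 at baseline, -0.01 at week 4 and -0.04 at week 12 on the log2 scale. The arms overlapped in each of the 45 pairs of one of the 15 probe sets and a time, where 0.179% of all tested probe sets did not overlap at baseline, 0.0983% at week 4 and 0.112% at week 12.

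**Figure D1:**
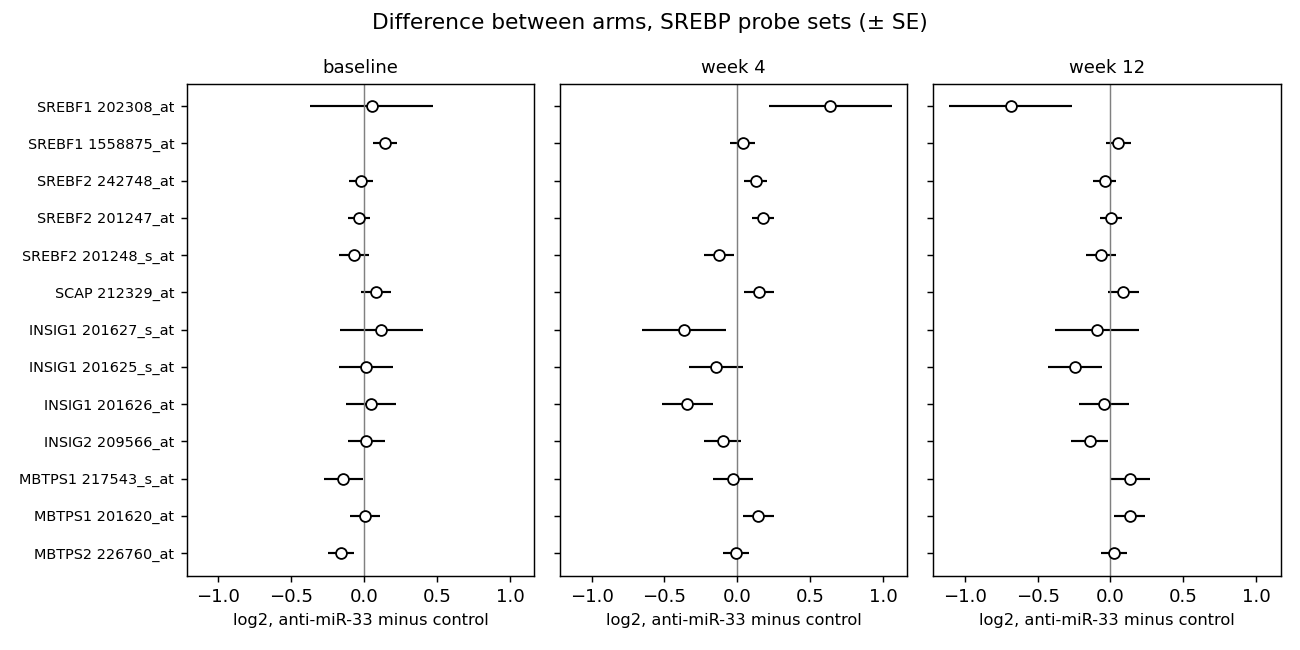
Difference between arms (anti-miR-33 minus control, log2, horizontal axis) for the 13 tested probe sets of SREBP genes at baseline, week 4 and week 12, with bars of 1 SE. All points are open because none passed an adjusted p of 0.05, and the widest bars belong to SREBF1 202308_at.

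SREBF1, the gene of SREBP-1 and host of miR-33b, had the largest differences between arms in size at week 4 and at week 12 of the 13 probe sets, in opposite directions and with wide errors. On probe set 202308_at, baseline values (lowest, median and highest) were 6.24, 6.43 and 7.81 in the anti-miR-33 arm and 5.82, 6.62 and 7.25 in the control arm. At week 4 they were 7.19, 7.37 and 8.20 in anti-miR-33 animals and 6.36, 6.83 and 7.61 in controls. At week 12 they were 6.54, 7.47 and 8.82 in anti-miR-33 animals and 6.67, 8.04 and 10.48 in controls. The arms overlapped at all 3 times, and the most separated values were those of week 4, where 5 of 6 controls lay below the lowest treated animal.

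Between arms SREBF1 202308_at differed by 0.05 ± 0.42 in baseline arrays, by 0.64 ± 0.42 in week 4 arrays and by -0.69 ± 0.42 in week 12 arrays (log2, SE, n = 6 each), and limma's adjusted p was at least 0.994 at each time. An exact two-sided permutation test over the 12 animals gave p = 0.0281 at week 4 (0.169 after Benjamini-Hochberg adjustment over 12 comparisons of SREBF1 and SREBF2) and p = 0.344 at week 12 (0.519 adjusted). With each animal left out in turn the difference at week 12 lay between -0.99 and -0.23, the smallest in size without control animal 4, and that at week 4 between 0.49 and 0.79. From baseline to week 4 the change was 0.86 ± 0.32 in anti-miR-33 animals and 0.28 ± 0.16 in controls (SD, n = 6 each), upward in 6 of 6 animals of each arm. The difference between these changes, 0.58, had an exact permutation p of 0.00433, where the smallest possible is 0.00216, and 0.0519 after adjustment, so it did not pass. With each animal left out in turn, the difference lay between 0.49 and 0.68 and the exact unadjusted p between 0.00216 and 0.0108. In limma the same difference was 0.58 ± 0.55 (adjusted p = 1.00), with 1 variance shared by all 3 times.

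From week 4 to week 12 the change of SREBF1 202308_at was 0.04 ± 1.00 in anti-miR-33 animals and 1.36 ± 1.26 in controls (SD, n = 6 each). The difference between these changes was -1.32 ± 0.55 (limma, SE, adjusted p = 0.999), with an exact permutation p of 0.0779 (0.312 adjusted) and a range of -1.64 to -1.02 with each animal left out. Between baseline and week 12 the changes of the arms differed by -0.74 ± 0.55, a value that lay between -1.08 and -0.34 with each animal left out, the smallest in size without anti-miR-33 animal 1. The other SREBF1 probe set, 1558875_at, gave differences near 0 or of the other sign: 0.04 ± 0.08 at week 4, 0.05 ± 0.08 at week 12 and -0.11 ± 0.11 for the change from baseline to week 4. The correlation of both probe sets over 36 arrays of 12 animals was 0.07.

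**Figure D2:**
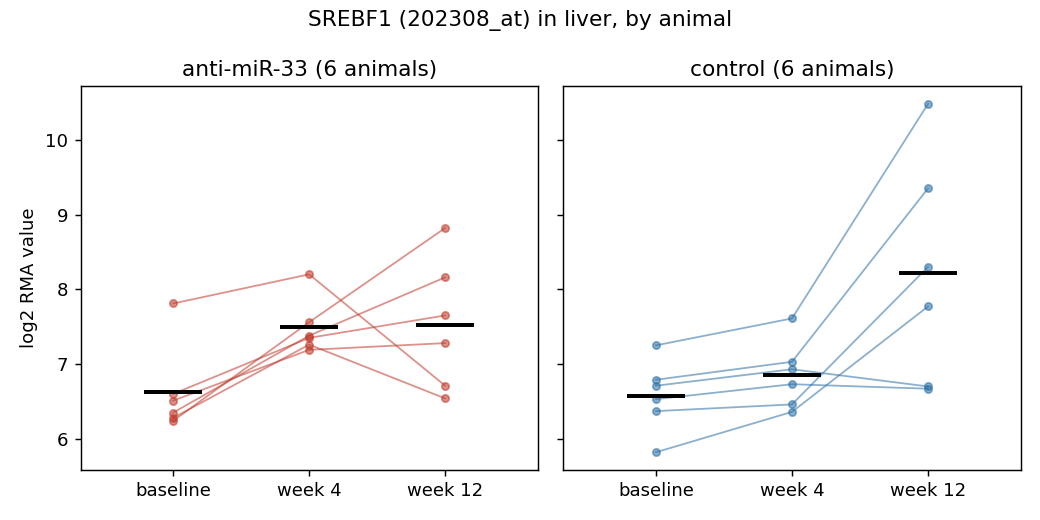
SREBF1 (probe set 202308_at, log2 RMA value, vertical axis) at baseline, week 4 and week 12, with 1 line per animal for the anti-miR-33 arm (left) and the control arm (right) and black bars at group means. All 12 lines go up to week 4, and at week 12 the values spread between 6.54 and 10.48.

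The second question was how these genes changed over the study in both arms. SREBF1 202308_at was 1.26 ± 0.28 log2 units higher at week 12 than at baseline (2.40-fold, limma adjusted p = 6.95e-04), in 10 of 12 animals. This was the largest change of the 13 probe sets in that interval. At week 4 it was 0.57 ± 0.28 above baseline in 12 of 12 animals, which did not pass in limma (adjusted p = 0.107), and from week 4 to week 12 it was 0.70 ± 0.28 higher in 8 of 12 animals (adjusted p = 0.0580, and 0.0356 with the animal as a fixed block). Without the week 12 arrays, the change to week 4 was 0.57 ± 0.15 with an adjusted p of 0.00593, and an exact sign-flip permutation test within animals gave p = 4.88e-04, the smallest it can give (0.00684 after adjustment over 21 comparisons). Both of these were chosen after the values were seen. For the change to week 12, the exact sign-flip permutation test within animals gave p = 0.00879 (0.0256 adjusted). For the change from week 4 to week 12, the exact sign-flip permutation test within animals gave p = 0.0889 (0.136 adjusted). The SE of the 12 animals' own changes was 0.11 to week 4, 0.37 to week 12 and 0.37 from week 4 to week 12, where limma's was 0.28. With the 3′ minus 5′ value as a covariate, the change to week 4 was 0.28 ± 0.36 (adjusted p = 0.611) and the change to week 12 was 0.92 ± 0.39 (0.174). The other probe set of SREBF1, 1558875_at, rose by 0.14 ± 0.05 to week 4 (adjusted p = 0.0446) and was 0.12 ± 0.05 higher at week 12 (0.114). The call to week 4 was lost in 14 of 21 alternatives (adjusted p 0.0524 to 0.159), among them those without anti-miR-33 animals 1, 2, 4 or 6 or control animals 1, 2, 3 or 6 and the one with the 3′ minus 5′ covariate.

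The animals differed most in SREBF1 at week 12. The SD of 202308_at was 0.87 in anti-miR-33 animals and 1.50 in controls at week 12, and between 0.37 and 0.59 in the 4 groups of earlier times. The highest values at week 12 were 10.48 and 9.35 in control animals 4 and 3, and 8.82 in anti-miR-33 animal 5. The highest animal of each arm at baseline, anti-miR-33 animal 1 (7.81) and control animal 4 (7.25), was also the highest of its arm at week 4, at 8.20 and 7.61. At week 12 control animal 4 was still the highest, and anti-miR-33 animal 1, at 6.71, was among the low values. Over the 6 groups the SD within groups was 0.81 for SREBF1 202308_at, above that of 99.8% of the 22391 tested probe sets, whose median was 0.18. INSIG1 201627_s_at was also variable (0.54, above 98.8%), whereas SREBF2 201247_at had 0.12, above only 5.04%.

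SREBF2, the gene of SREBP-2 and host of miR-33a, changed little beside SREBF1. Probe set 242748_at, taken for the gene by its highest mean, had lowest, median and highest values of 6.82, 6.91 and 7.12 at baseline in anti-miR-33 animals and 6.83, 6.94 and 7.11 in controls. At week 4 the values were 6.70, 7.00 and 7.16 in anti-miR-33 animals and 6.60, 6.85 and 7.06 in controls, and at week 12 they were 6.69, 6.88 and 6.96 in anti-miR-33 animals and 6.78, 6.86 and 7.04 in controls. All 6 groups overlapped. Its change from baseline to week 12 was -0.07 ± 0.05 (limma adjusted p = 0.362). Probe set 201247_at fell by 0.24 ± 0.05 from baseline to week 12 (adjusted p = 4.24e-04), with 11 of 12 animals lower and 1 unchanged, and by 0.19 ± 0.05 from week 4 to week 12 (adjusted p = 0.00581). With the 3′ minus 5′ covariate the first change was -0.14 ± 0.07 (adjusted p = 0.244) and the second -0.17 ± 0.05 (0.00842). Probe set 201248_s_at was 0.10 ± 0.07 lower at week 12 than at baseline (adjusted p = 0.273). The correlation over 36 arrays was 0.46 between 242748_at and 201247_at, 0.35 between 201247_at and 201248_s_at and 0.08 between 242748_at and 201248_s_at.

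Arm differences of SREBF2 were at most 0.18 log2 units in size on its 3 probe sets at the 3 times. On 242748_at they were -0.02 ± 0.08 at baseline, 0.13 ± 0.08 at week 4 and -0.04 ± 0.08 at week 12 (log2, SE), with intervals of 1.96 SE of -0.18 to 0.13, -0.03 to 0.28 and -0.20 to 0.12. The exact permutation p was 0.742, 0.197 and 0.535 at these times. At week 4, 201247_at differed by 0.18 ± 0.08 and 201248_s_at by -0.13 ± 0.10, so the 3 probe sets did not share a direction, and none passed (limma adjusted p at least 0.956). Before adjustment, 201247_at had the smallest limma p of the 13 tested probe sets at week 4, 0.0256. From baseline to week 4 it changed by 0.05 ± 0.14 in anti-miR-33 animals and by -0.16 ± 0.18 in controls (SD, n = 6 each). These changes differed with an unadjusted limma p of 0.0405, which did not pass after adjustment. Exact permutation was not run on 201247_at.

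SCAP, the sterol sensor that escorts SREBP precursors, was lower at week 12 than at either earlier time. Probe set 212329_at had lowest, median and highest values of 9.03, 9.54 and 9.69 at baseline in anti-miR-33 animals and 9.13, 9.41 and 9.55 in controls. At week 4 these were 9.49, 9.62 and 10.06 in anti-miR-33 animals and 9.34, 9.51 and 9.68 in controls, and at week 12 they were 8.99, 9.17 and 9.63 in anti-miR-33 animals and 9.01, 9.14 and 9.27 in controls. In the control arm the highest value of week 12 lay below the lowest of week 4, which held for 1.15% of all tested probe sets, and in the anti-miR-33 arm the ranges overlapped. Between week 4 and week 12 SCAP fell by 0.39 ± 0.07 log2 units (limma adjusted p = 9.61e-05), in 11 of 12 animals. It was also 0.24 ± 0.07 lower at week 12 than at baseline (adjusted p = 0.00850), again in 11 of 12 animals. With the 3′ minus 5′ value as a covariate the fall from week 4 was 0.36 ± 0.06 (adjusted p = 5.40e-05), and the difference from baseline was -0.03 ± 0.08 (adjusted p = 0.908). The arms differed in SCAP by 0.08 to 0.15 at the 3 times, each with an SE of 0.11.

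INSIG1, whose protein retains SCAP when sterols are plentiful, rose from week 4 to week 12 on all 3 of its probe sets. Probe set 201627_s_at, taken for the gene by its highest mean, had lowest, median and highest values of 10.14, 10.92 and 11.35 at baseline in anti-miR-33 animals and 9.93, 10.87 and 11.25 in controls. At week 4 these were 9.15, 10.72 and 10.99 in anti-miR-33 animals and 10.12, 10.63 and 11.51 in controls, and at week 12 they were 10.89, 11.37 and 11.79 in anti-miR-33 animals and 10.96, 11.41 and 12.44 in controls. The rise from week 4 to week 12 was 0.90 ± 0.19 on this probe set (1.87-fold, limma adjusted p = 6.32e-04, 11 of 12 animals). It was 0.49 ± 0.11 on 201626_at (adjusted p = 0.00155) and 0.34 ± 0.12 on 201625_s_at (0.0329), with 10 of 12 animals higher on each. The call of 201625_s_at was lost without anti-miR-33 animals 2 or 5 or control animals 2, 4 or 5 (adjusted p 0.0628 to 0.108) and without the animal as a block (0.0601), and those of the other 2 probe sets were kept in each alternative that tested them. Adding the 3′ minus 5′ covariate gave a rise on 201627_s_at of 0.84 ± 0.18 (adjusted p = 8.40e-04).

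The probe sets of INSIG1 differed in the other intervals. From baseline to week 4, 201626_at fell by 0.50 ± 0.11 (limma adjusted p = 6.44e-04) in 12 of 12 animals, 201627_s_at changed by -0.24 ± 0.19 (adjusted p = 0.332) and 201625_s_at by 0.22 ± 0.12 (0.162). From baseline to week 12, 201627_s_at rose by 0.66 ± 0.19 (adjusted p = 0.00797, 10 of 12 animals) and 201625_s_at by 0.56 ± 0.12 (6.11e-04, 12 of 12), whereas 201626_at was at -0.01 ± 0.11. Under the 3′ minus 5′ covariate the changes to week 4 were -0.51 ± 0.15 on 201626_at (adjusted p = 0.0115), -0.55 ± 0.24 on 201627_s_at (0.0822) and -0.09 ± 0.14 on 201625_s_at (0.687), where the sign turned. The change of 201627_s_at to week 12 was 0.29 ± 0.25 under it (adjusted p = 0.582). Over 36 arrays the correlation was 0.83 between 201627_s_at and 201625_s_at, 0.72 between 201627_s_at and 201626_at and 0.41 between 201625_s_at and 201626_at. The lowest INSIG1 values of the series were at week 4 in anti-miR-33 animals 5 and 2, at 9.15 and 9.48 on 201627_s_at. The arm difference there was -0.37 ± 0.29 on 201627_s_at, -0.34 ± 0.17 on 201626_at and -0.15 ± 0.19 on 201625_s_at, none of which passed in limma (adjusted p at least 0.974).

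**Figure D3:**
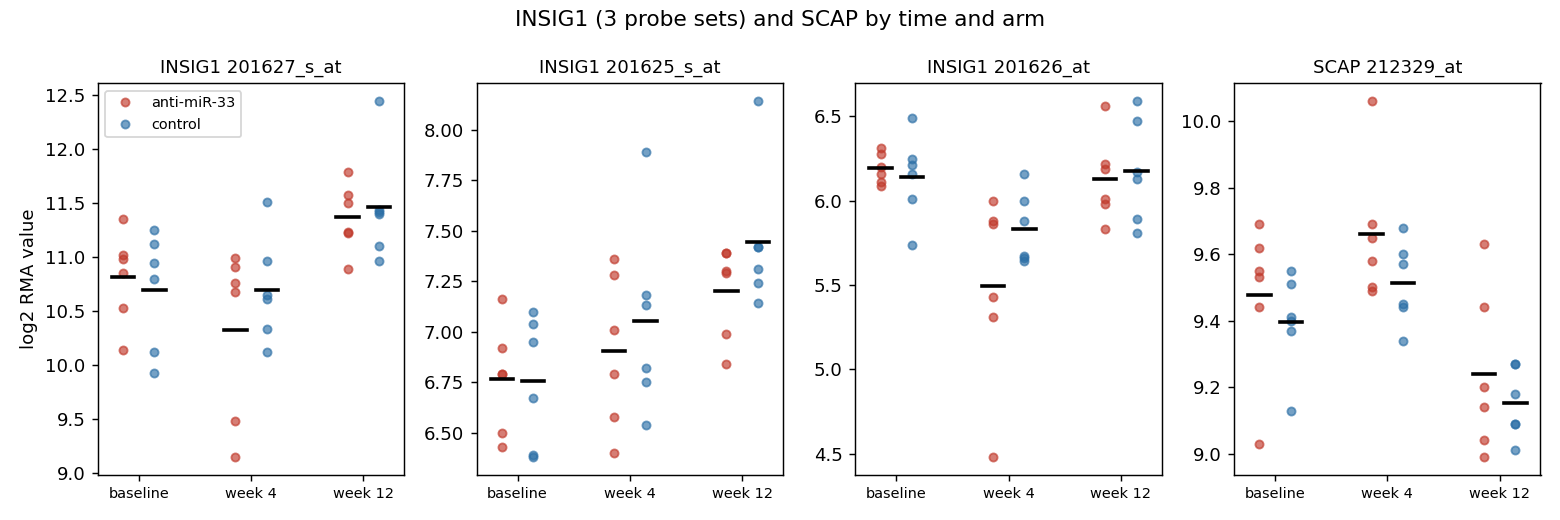
Log2 RMA values (vertical axes, each with its own range) of the 3 INSIG1 probe sets and of SCAP 212329_at at baseline, week 4 and week 12, with 1 point per animal for the anti-miR-33 arm (left of each pair) and the control arm (right), and black bars at group means. INSIG1 is higher at week 12 than at week 4 on all 3 probe sets and SCAP is lower, in both arms.

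INSIG2, the second SCAP-retaining protein, was higher at both later times. Probe set 209566_at had lowest, median and highest values of 4.07, 4.54 and 4.82 at baseline in anti-miR-33 animals and 4.18, 4.51 and 4.84 in controls. At week 4 these were 4.79, 4.84 and 5.10 in anti-miR-33 animals and 4.70, 4.99 and 5.25 in controls, and at week 12 they were 4.36, 4.88 and 5.02 in anti-miR-33 animals and 4.60, 4.88 and 5.22 in controls. The signal lay close to the median of the array, 4.46. The rise from baseline was 0.43 ± 0.08 at week 4 (limma adjusted p = 1.03e-04) and 0.33 ± 0.08 at week 12 (0.00284), in 10 of 12 animals at each time. The change from week 4 to week 12 was -0.10 ± 0.08 (adjusted p = 0.365). The covariate gave a rise to week 4 of 0.35 ± 0.11 (adjusted p = 0.0147) and a change to week 12 of 0.23 ± 0.12 (0.274). The arms differed by 0.01 ± 0.13, -0.10 ± 0.13 and -0.14 ± 0.13 at baseline, week 4 and week 12.

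MBTPS1 and MBTPS2 encode the site-1 and site-2 proteases that cut SREBP precursors in the Golgi. MBTPS1 217543_s_at rose by 0.27 ± 0.09 from baseline to week 12 (limma adjusted p = 0.0218, 9 of 12 animals), and MBTPS2 226760_at rose by 0.16 ± 0.06 (0.0377, 9 of 12 animals). Group means of MBTPS1 217543_s_at were 7.62 ± 0.23 in anti-miR-33 animals and 7.49 ± 0.18 in controls at week 12, and 7.22 ± 0.17 in anti-miR-33 animals and 7.36 ± 0.29 in controls at baseline (SD, n = 6 each). Those of MBTPS2 226760_at were 6.32 ± 0.08 in anti-miR-33 animals and 6.29 ± 0.20 in controls at week 12, and 6.06 ± 0.17 in anti-miR-33 animals and 6.22 ± 0.12 in controls at baseline. In the anti-miR-33 arm MBTPS1 217543_s_at did not overlap between these times (7.48 to 8.08 at week 12 and 6.98 to 7.45 at baseline), as was so for 1.31% of all tested probe sets with week 12 the higher, whereas the control arm of MBTPS1 and both arms of MBTPS2 did. Neither call was stable: without anti-miR-33 animal 2, anti-miR-33 animal 6 or control animal 5, the adjusted p of MBTPS1 was 0.0521, 0.0841 and 0.0786, and without any 1 of 7 animals that of MBTPS2 lay between 0.0501 and 0.106. With the 3′ minus 5′ covariate the changes were -0.05 ± 0.10 for MBTPS1 and 0.04 ± 0.08 for MBTPS2.

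Over the 36 arrays the 3′ minus 5′ value had a correlation of -0.70 with MBTPS1 217543_s_at (-0.66 with group means removed), -0.65 with INSIG1 201625_s_at (-0.54), -0.56 with MBTPS1 201620_at (-0.78), -0.56 with MBTPS2 226760_at (-0.41), 0.52 with SREBF2 201247_at (0.37) and 0.43 with SCAP (0.58). For INSIG2 it was -0.50 (-0.15), for SREBF1 202308_at -0.43 (-0.18) and for INSIG1 201627_s_at -0.35 (-0.35), and with the other 4 tested probe sets it lay between -0.22 and 0.28 (-0.15 to 0.21). The other MBTPS1 probe set, 201620_at, was 0.01 ± 0.07 higher at week 12 than at baseline (adjusted p = 0.966), with a correlation of 0.63 between both. Under the covariate its change from baseline was -0.17 ± 0.07 at week 4 (adjusted p = 0.0494) and -0.28 ± 0.07 at week 12 (0.0170), both called. The 2 MBTPS2 probe sets under the filter had ranges of 4.00 to 4.92 and 3.10 to 3.60 over the groups, and correlations of 0.16 and -0.35 with 226760_at. The arms differed by 0.14 ± 0.14 in MBTPS1 217543_s_at and by 0.02 ± 0.09 in MBTPS2 226760_at at week 12.

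Taking the 13 tested probe sets as a set, 2 were higher and 1 was lower at week 4 than at baseline, against 16.7% and 19.8% of all probe sets tested. At week 12, 6 were higher and 2 lower than at baseline, against 11.2% and 14.7% of all. Those higher were of SREBF1, INSIG1 (2 probe sets), INSIG2, MBTPS1 and MBTPS2, and those lower were of SCAP and SREBF2. From week 4 to week 12, 3 were higher, all of INSIG1, and 2 were lower, of SCAP and SREBF2, against 12.9% and 13.4% of all. Median changes of the 13 were 0.08, 0.12 and -0.02 in these intervals. With the 3′ minus 5′ covariate 1 was called from baseline to week 12, MBTPS1 201620_at, which was lower and is not among the 8, and in that fit 0.755% of all probe sets were higher and 4.05% lower. From baseline to week 4 the covariate gave 4 calls, INSIG2 and SCAP higher and INSIG1 201626_at and MBTPS1 201620_at lower, against 9.67% and 15.5% of all. From week 4 to week 12 the same 5 were called as without it, against 13% and 13.4%. The part of the other cell types' markers in these changes was not tested.

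**Figure D4:**
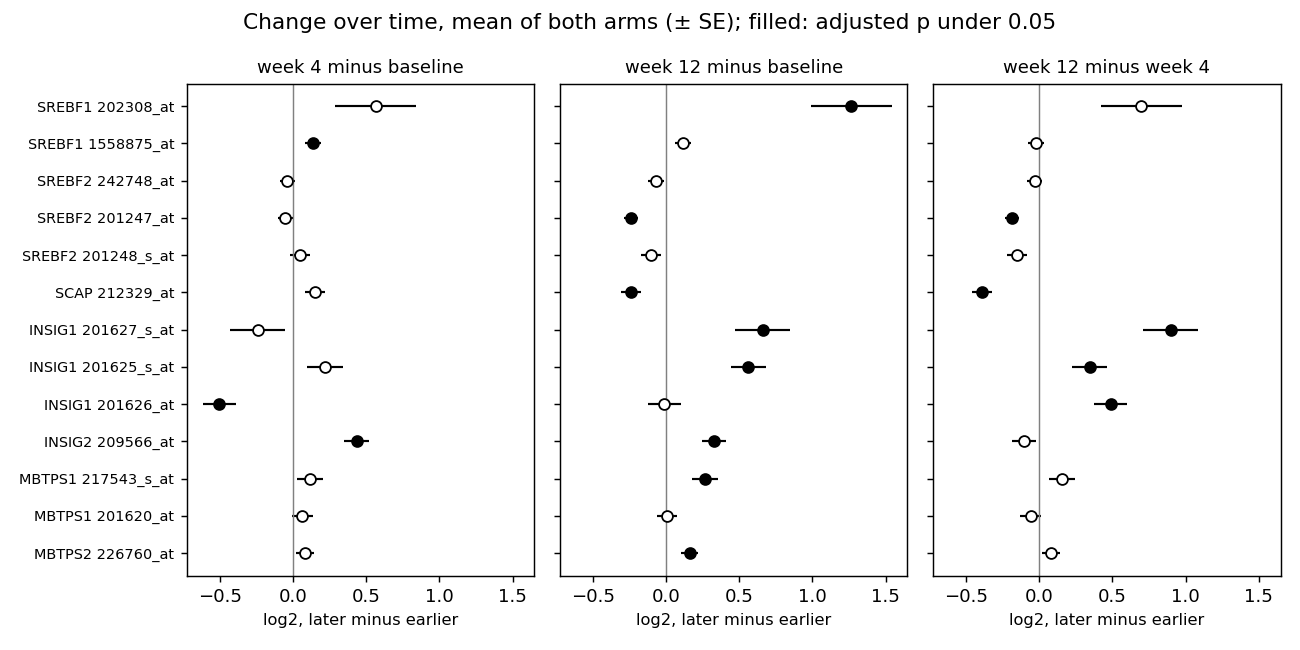
Change over time (log2, later minus earlier, mean of both arms, horizontal axis) of the 13 tested probe sets, with bars of 1 SE and filled points where limma's adjusted p was under 0.05. SREBF1 202308_at and 2 INSIG1 probe sets lie furthest to the right for week 12 minus baseline, at 1.26, 0.66 and 0.56, and SCAP lies furthest to the left for week 12 minus week 4, at -0.39.

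Genes downstream of the 2 SREBPs moved in different directions over the study, in the fit without the 3′ minus 5′ covariate. Their changes with that covariate were not examined. With it, 0.755% of all probe sets were higher and 4.05% lower from baseline to week 12, against 11.2% and 14.7% without it. Of 17 tested SREBP-1 targets in fatty acid and triglyceride synthesis, 7 rose and none fell from baseline to week 12, against 10.6% higher and 16.2% lower among all 13634 genes tested. SCD, the stearoyl-CoA desaturase, rose by 2.22 ± 0.25 (limma adjusted p = 3.70e-08), THRSP, a lipogenic regulator, by 1.39 ± 0.31 (9.81e-04), ELOVL5, a fatty acid elongase, by 1.27 ± 0.13 (7.18e-09) and FASN, the fatty acid synthase, by 1.24 ± 0.45 (0.0363). FADS2, MID1IP1 and ACACB made up the 7. Of 19 tested SREBP-2 targets in cholesterol synthesis and uptake, 8 fell and 1 rose in the same interval. HMGCS1, the HMG-CoA synthase of the pathway, fell by 1.08 ± 0.20 (adjusted p = 9.17e-05), FDPS, which makes farnesyl pyrophosphate, by 0.71 ± 0.14 (2.92e-04) and SQLE, the squalene epoxidase, by 0.67 ± 0.14 (3.71e-04), and the riser was STARD4, a sterol carrier, at 0.20 ± 0.08 (0.0495). Medians were 0.25 for the SREBP-1 list, -0.08 for the SREBP-2 list and -0.01 for all genes. INSIG1, itself a target of SREBPs, was called higher in this interval on 2 of its 3 probe sets, was at -0.01 ± 0.11 on 201626_at (adjusted p = 0.951), and was called on none with the 3′ minus 5′ covariate.

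At week 4, still on chow, 4 of the 17 SREBP-1 targets were higher and 1 was lower than at baseline, against 15% and 20.6% of all genes. ELOVL5 rose by 0.63 ± 0.13 (adjusted p = 2.49e-04) and DGAT2, which makes triglyceride, by 0.54 ± 0.13 (0.00119). Of the 19 SREBP-2 targets 1 was higher and 2 were lower. From week 4 to week 12, 2 SREBP-1 targets rose and 1 fell, and 1 SREBP-2 target rose and 7 fell, against 13.3% higher and 13.5% lower among all genes. No gene of either list passed in a comparison between arms.

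Among 23 tested genes that move or degrade SCAP, INSIG and SREBP proteins, 8 fell and 1 rose to week 4, against 20.6% lower and 15% higher among all genes. From week 4 to week 12, 7 rose and 2 fell, against 13.3% higher and 13.5% lower. SEC24D, a coat protein of the vesicles that carry SCAP, fell by 0.48 ± 0.14 to week 4 (adjusted p = 0.00763) and rose by 0.67 ± 0.14 from week 4 to week 12 (6.54e-04), and RNF145, a ubiquitin ligase of SCAP, fell by 0.39 ± 0.11 (0.00432) and rose by 0.51 ± 0.11 (5.71e-04). From baseline to week 12, 5 of the 23 rose and 3 fell, against 10.6% and 16.2% of all genes. Of 14 tested transcriptional regulators of SREBF1, 3 rose and 3 fell in the same interval, and the share lower was near that of all genes. NR1H3, the liver X receptor that induces SREBF1, fell by 0.53 ± 0.09 (adjusted p = 3.14e-05), NR0B2, the repressor SHP, rose by 1.04 ± 0.15 (2.46e-06), and BHLHE40 rose by 0.63 ± 0.20 (0.0154). Of 15 tested genes of insulin and nutrient signalling, 6 fell and none rose, against the same 16.2% and 10.6%, among them the insulin receptor INSR by 0.55 ± 0.09 (1.24e-05) and its substrate IRS1 by 0.43 ± 0.07 (8.02e-06). None of these 3 lists had a gene called between arms. Changes of genes in these lists were not examined with the 3′ minus 5′ covariate.

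The array-to-array pattern of SREBF1 202308_at followed that of the SREBP-1 targets. Probe set 1558875_at of SREBF1 was not compared with the targets, and its correlation with 202308_at was 0.07 (-0.14 with group means removed). The SREBF1 values below are those of 202308_at. Over the 36 arrays, which are of 12 animals and share their times and RNA quality, the correlation of SREBF1 with the mean of the 17 targets was 0.83, and 0.77 with group means removed. Within the 12 arrays of a time it was 0.71 for baseline, 0.69 for week 4 and 0.87 for week 12, and it was 0.79 over all times without the 2 arrays farthest from the SREBF1 median. Single targets ran from -0.26 for LPIN1, a phosphatidate phosphatase, to 0.83 for MID1IP1, with a median of 0.62. It was 0.76 for THRSP, 0.75 for SCD, 0.74 for FASN and 0.64 for ACACA, the acetyl-CoA carboxylase, and it was weak for PNPLA3, a lipid droplet protein (0.21), ME1, the malic enzyme (0.098), and AGPAT2, an acyltransferase (0.090). With the mean of the 19 SREBP-2 targets the correlation of SREBF1 was -0.13 over all arrays and 0.20 with group means removed, and it was 0.12 within baseline, 0.19 within week 4 and 0.32 within week 12 arrays, so its sign turned once the times were taken apart. For SREBF2 242748_at it was 0.25 with the SREBP-2 list (0.18 with group means removed) and -0.18 with the SREBP-1 list (-0.11).

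**Figure D5:**
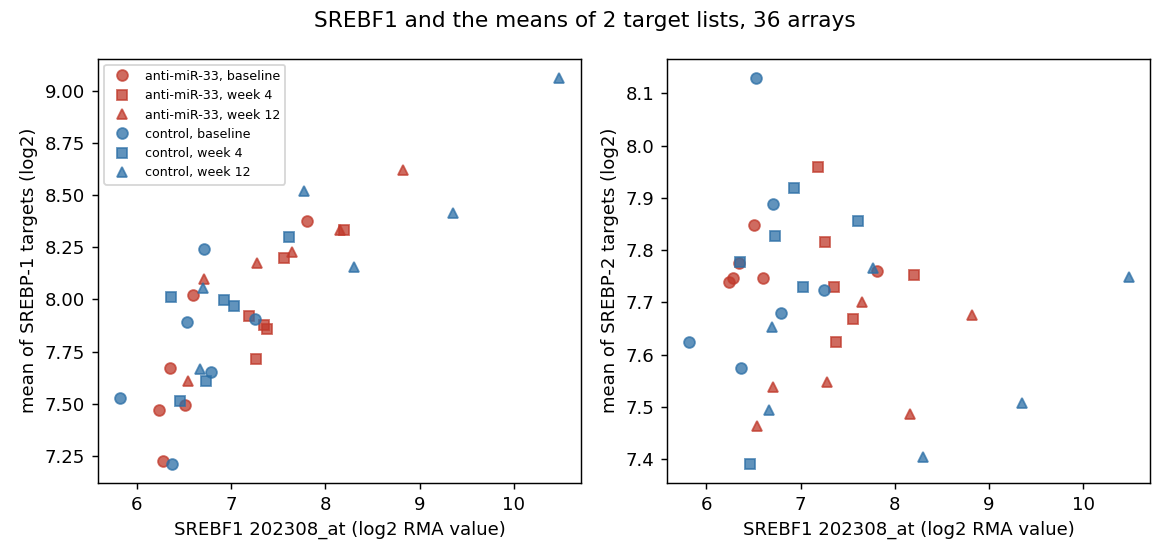
SREBF1 202308_at (log2 RMA value, horizontal axis) against the mean log2 value of 17 SREBP-1 targets (left) and of 19 SREBP-2 targets (right), 1 point per array, in red for anti-miR-33 and blue for control, with circles for baseline, squares for week 4 and triangles for week 12. Over all arrays the correlation is 0.83 in the left panel and -0.13 in the right panel, and with group means removed it is 0.77 in the left panel and 0.20 in the right panel.

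Between the 7 genes themselves correlations over the 36 arrays were mostly weak. The highest were 0.55 between SREBF1 and INSIG2 (0.51 with group means removed) and 0.51 between MBTPS1 and MBTPS2 (0.37), and the lowest was -0.48 between SCAP and INSIG1 (-0.10). SREBF1 and SREBF2 had a correlation of 0.02. With group means removed, the tested genes most like SREBF1 were SEC31B at 0.82, a COPII coat protein, ANGPTL8 at 0.79, an insulin-induced inhibitor of lipoprotein lipase, INHBA at 0.78, ADIPOR2 at 0.77, an adiponectin receptor, and MID1IP1 at 0.76, which activates acetyl-CoA carboxylase. For SREBF2 they began with ACR at 0.67, for SCAP with MTA1 at 0.75, for INSIG1 with ARIH1 at 0.72, for INSIG2 with MCCC2 at 0.64, for MBTPS1 with PLA2G12A at 0.76 and for MBTPS2 with ADIPOR1 at 0.77.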

How the data were processed

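Total RNA from liver biopsies was extracted with Trizol and labelled with an Enzo method, per the labels' protocols. The authors deposited 1 table of log2 values, made with RMA (background correction, normalization between arrays and summary of probes), per the submitters' processing notes. No source used here gives its version or says whether all arrays were normalized together. Normalization of this kind removes a shift that most transcripts share. Values ran from 2.41 to 15.07, all 36 columns were matched to samples, and 0 were left unmatched. Gene names came from the platform annotation, in which 41097 probe sets had 1 symbol, 1801 several and 11777 none.

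The deposited log2 values were fitted without further normalization in limma 3.58.1 (R 4.3.3), taking a mean for each of the 6 groups and the animal as random block (correlation 0.14), over the 22391 probe sets with 1 symbol and a mean of at least 4.46, with Benjamini-Hochberg adjustment over all of them at 0.05. The model was tested on simulated data. A gene outside the set was represented by its probe set of highest mean. Animal identifiers in the labels pair the arrays of an animal, and 4 to 6 of 6 animals per arm matched their own array best between any 2 times. SREBF1 and SREBF2 were also compared by exact permutation over animals. Genes named from a list for a change passed the threshold in the comparison they are named for. No threshold was applied to the correlations for which other list genes are named. The genes described, their pathway and marker lists and the tests were chosen with earlier results of these data known. Alternatives, examined for the probe sets of the 7 genes, covered the filter, probe sets, block, normalization, variance model, RNA quality and each animal. The number of arrays limits the precision.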

Additional observations from a re-analysis of the deposited data

Results flagged for a closer look

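In 11 of 90 groups of 6 arrays (15 probe sets in 6 groups), 1 array lay far from the others by Dixon's test at its 95% critical value, where chance flags about 1 in 20 groups. Anti-miR-33 animal 1 was the highest of its group in SREBF1 202308_at at baseline (7.81, next 6.60) and at week 4 (8.20, next 7.56), and in MBTPS1 201620_at at baseline (7.62, next 7.17). Anti-miR-33 animal 3 was the highest in SCAP at week 4 (10.06, next 9.69). Control animal 2 was the highest at week 12 in INSIG1 201627_s_at (12.44, next 11.43), INSIG1 201625_s_at (8.14, next 7.42) and MBTPS1 217543_s_at (7.84, next 7.50), and at baseline in MBTPS2 226760_at (6.46, next 6.23). In MBTPS1 217543_s_at, control animal 5 was the lowest at baseline (6.80, next 7.36) and anti-miR-33 animal 6 the highest at week 12 (8.08, next 7.60). Control animal 4 was the highest in MBTPS2 1554604_at at week 4 (3.60, next 3.29), a probe set under the filter.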

How the results depend on the processing

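The count of tested probe sets called between arms was 0 in each of the 6 comparisons, under every alternative that gave the comparison. The fit with the animal as a fixed block gave no arm difference at a single time. Fits without the arrays of a time gave no comparison that uses it. The count from baseline to week 4 was 3, and it was 0 over probe sets with a mean of at least 6 and 1 with 1 probe set per gene, settings that leave out probe sets by construction; the count from week 4 to week 12 was 5, and 2 with 1 probe set per gene. From baseline to week 12 it was 8, and 1 with the 3′ minus 5′ covariate. With the animal as a fixed replicate block, the counts were 3, 8 and 6, and SREBF1 202308_at became called from week 4 to week 12 (adjusted p = 0.0356), as it did with means of at least 6 (0.0439) and without anti-miR-33 animals 1 or 4 or control animals 2 or 6 (0.0221 to 0.0487). Without a block MBTPS2 226760_at (0.0644), INSIG1 201625_s_at from week 4 to week 12 (0.0601) and SREBF1 1558875_at to week 4 (0.0764) lost their calls, and with no filter MBTPS2 226760_at (0.0616) and SREBF1 1558875_at (0.0608) did, the second also with a second quantile normalization (0.0664). SREBF1 1558875_at also lost it without the week 4 array of control animal 1, which carries the later diet in its label (0.0592). MBTPS2 226760_at also lost its call without the week 12 array of control animal 5 (0.0605). SCAP was called higher at week 4 than at baseline with a second quantile normalization (0.21), with the covariate (0.33) and without anti-miR-33 animal 2 (0.18). Signs turned on other probe sets of a gene. SREBF1 1558875_at gave 0.055 for the arm difference at week 12, -0.11 and 0.0183 for the differences in change from baseline to week 4 and from week 4 to week 12, and -0.0208 for the change from week 4 to week 12. SREBF2 201248_s_at gave -0.13 for the arm difference at week 4, and -0.0567 and 0.0583 for the same 2 differences in change. INSIG1 gave 0.22 on 201625_s_at from baseline to week 4 and -0.0133 on 201626_at from baseline to week 12. MBTPS1 201620_at gave 0.005 for the arm difference at baseline and -0.0592 from week 4 to week 12. With the covariate MBTPS1 217543_s_at turned to -0.155 at week 4 and -0.0491 at week 12, both against baseline, MBTPS1 201620_at to -0.175 and -0.277 at the same times, MBTPS2 226760_at to -0.0254, INSIG1 201625_s_at to -0.0881, SREBF2 201247_at to 0.0297 and SREBF2 201248_s_at to -0.00353 at week 4. The cause of these turns was not tested. In fits without all arrays of 1 time, chosen after the data were seen, SREBF1 1558875_at lost its call to week 4 without the week 12 arrays, 202308_at gained one (0.57), and the same probe sets as before were called from baseline to week 12 without week 4 arrays and from week 4 to week 12 without baseline arrays.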
